A study of Mus musculus with 6 samples.

Results

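Nfil3, Eomes, Tbx21, Rora and Zbtb16 encode transcription factors that direct natural killer (NK) cells and other innate lymphoid cells (ILCs). They were read on mouse expression arrays of pro-B cells that lack Pax5. These 5 genes, of 18193 named genes on the array, were taken with every probe set whose platform symbol is exactly one of them, which gave 16 probe sets, each kept separate. Rora had 9 of them, Zbtb16 had 3, Eomes had 2, and Nfil3 and Tbx21 had 1 each. The comparison was between 3 arrays of Pax5-/- pro-B cells given the Mig-EBF retrovirus, which carries the B cell transcription factor EBF, and 3 arrays of Pax5-/- pro-B cells given the control retrovirus MigR1. All 6 arrays therefore share the Pax5 deficiency, growth on ST2 stromal cells, 5 ng/ml IL-7, spin infection and a sort for GFP after 2 days. The labels give no age, sex or clone. Nothing in them ties the numbered replicates to separate cultures or animals, so the p-values cover only the spread among these 6 arrays, some of which may be technical. EBF 1 to 3 and control 1 to 3 name the arrays by group and labelled number. The brightest probe set of the transduced gene did not pass the test: Ebf1 read 4772, 4756 and 4082 on EBF 1 to 3, against 4204, 4276 and 4029 on control 1 to 3. The groups overlapped (log2 0.12, limma adjusted p = 0.469, blocked 0.377). It is not known here whether that probe set reads sequence carried by the virus, so it does not check the labels, and "with EBF" means the arrays labelled Mig-EBF.

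Each of the factors has a known place in innate lymphoid development in the mouse. Nfil3, also called E4BP4, is a basic leucine zipper repressor that binds D-box DNA elements and is needed to form NK and ILC progenitors, and it also belongs to the output of the circadian clock. Zbtb16 encodes PLZF, a BTB zinc finger protein of ILC precursors and NKT cells. Rora encodes the nuclear receptor RORalpha, which is needed for group 2 ILCs and which activates clock genes such as Arntl through ROR elements. Tbx21 (T-bet) and Eomes are related T-box factors that drive NK cell maturation and the genes of cytotoxicity and interferon gamma. Pro-B cells without Pax5 are not committed to the B lineage and can turn into other blood cells, NK cells among them, and EBF is known to hold B cell progenitors back from such fates.

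The promoter windows of Nfil3 and Rora are shown because these were the members with the largest differences between the groups. They are the 250 bases before the annotated start in RefSeq, build GRCm38.p6, read on the strand of the gene and in lower case, with matches to the searched motifs in capitals. Such windows were found for 4 of the 5 genes, and Zbtb16 is named only. The Nfil3 window lies at chr13:52981040-52981289 on the minus strand, and the Rora window at chr9:68653536-68653785 on the plus strand.
Nfil3: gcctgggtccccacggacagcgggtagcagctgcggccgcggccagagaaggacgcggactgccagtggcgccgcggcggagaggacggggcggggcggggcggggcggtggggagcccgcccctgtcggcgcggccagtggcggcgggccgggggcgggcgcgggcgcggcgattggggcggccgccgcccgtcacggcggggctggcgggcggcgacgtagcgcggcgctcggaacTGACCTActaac
Rora: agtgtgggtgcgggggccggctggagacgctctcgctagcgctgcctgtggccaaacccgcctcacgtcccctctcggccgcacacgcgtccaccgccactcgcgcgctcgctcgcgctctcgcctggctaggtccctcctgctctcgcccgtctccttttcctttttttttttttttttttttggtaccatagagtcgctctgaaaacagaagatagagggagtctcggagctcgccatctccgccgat
The capitals in the Nfil3 window are the ROR element core TAGGTCA read on the other strand, 12 to 6 bases before the start. Of all 32851 promoter windows, 2.23% hold this core on either strand. The EBF core CCCNNGGG is in 11.8% of all windows, the D-box TTANGTAA in 2.06% and the T-box element AGGTGTGA in 1.12%, again on both strands. None of these 3 motifs is in the windows of Nfil3, Rora, Eomes or Tbx21, and the ROR core is in none of them but that of Nfil3. The motifs do not overlap each other in these windows. A match describes letters in a window and was not tested as a binding site.

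Intensities are the deposited values per probe set on a linear scale, and the array medians lay between 424 and 451. The 27 control probe sets for Bacillus transcripts, which the samples do not contain, had a median of 103 over all arrays and reached 410.4 at most, and dim probe sets were read against these levels. Differences are EBF minus control of log2(intensity + 32), a scale that understates the change of dim genes. They were fitted with limma across all 45037 probe sets, with Benjamini-Hochberg adjustment over the whole table and a threshold of 0.05. Arrays of the same replicate number deviated together from the group means, though this pairing was not tested. Values with the number as a block in the fit are therefore given where they change a call. Levels of different probe sets cannot be compared with each other.

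Of the 16 probe sets 0 passed the threshold in the group-only limma fit, against 0.875% of all probe sets (0.344% higher and 0.531% lower with EBF). At an unadjusted p below 0.05 there were 3 of 16, against 18.9% of all probe sets. With the replicate block 2 of 16 passed, the Nfil3 probe set lower and 1 Rora probe set higher with EBF, against 7.28% of all probe sets (4.88% higher and 2.4% lower). The groups did not overlap for 4 of 16, or 25%, which is close to the 23.2% of all probe sets (15.5% higher and 7.67% lower). These 4 were the Nfil3 probe set and Rora 1458145_at, lower with EBF, and Rora 1420583_a_at and Zbtb16 1439163_at, higher with EBF. The log2 differences of the 16 ran between -0.55 and 0.35, with a median of -0.02, where all probe sets had a median of 0.02.

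**Figure D1:**
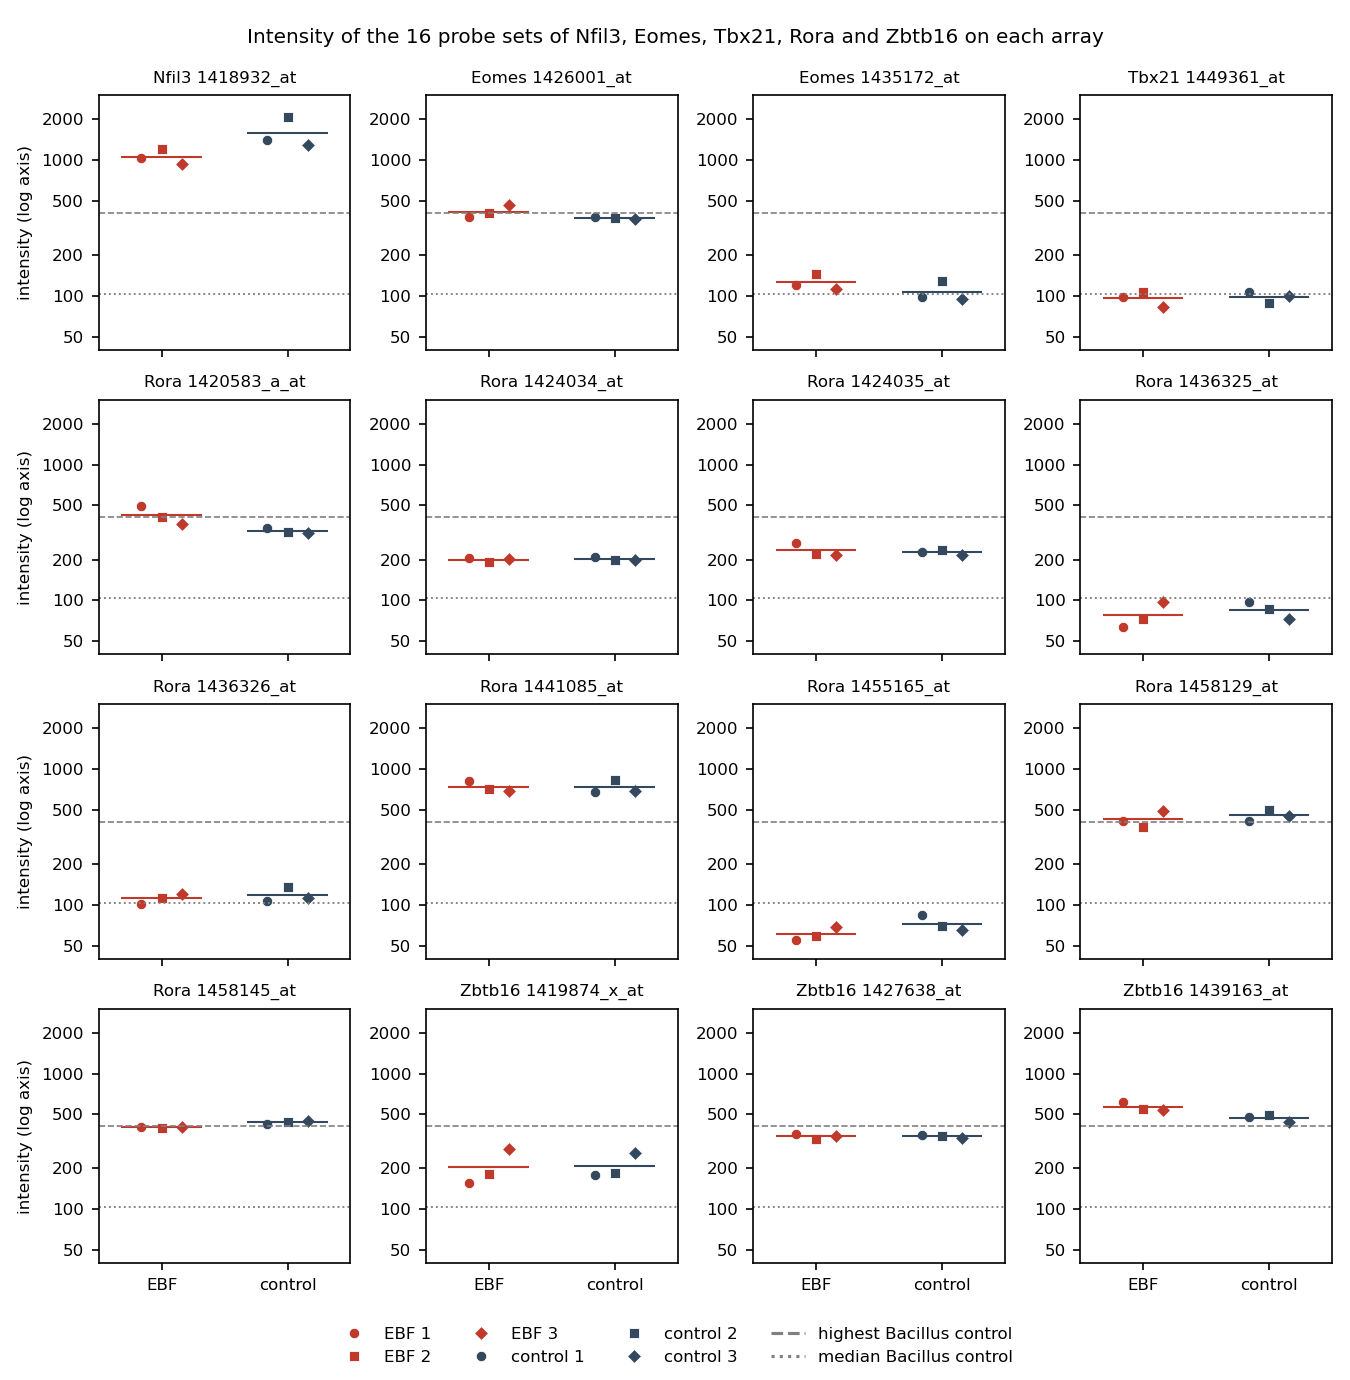
Intensity (log axis) of each of the 16 probe sets on the 3 EBF arrays (left, red) and the 3 control arrays (right, dark), with group means as bars, the highest Bacillus control intensity as a dashed line and the median as a dotted line. The Nfil3 arrays stand above the dashed line in both groups, and Tbx21 lies at the dotted line.

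Nfil3 was the member with the largest difference. Its probe set 1418932_at read 1036, 1215 and 933.5 on EBF 1 to 3, against 1409, 2064 and 1302 on control 1 to 3. Every EBF array was below every control array, and control 2 stood well above the other controls. The mean was 1062 ± 142 with EBF and 1592 ± 413 in controls (SD, n = 3 each), a ratio of 0.667. The log2 difference was -0.55 ± 0.17 (SE; 95% interval -0.94 to -0.16). The adjusted p in limma was 0.164 without the replicate block and 0.00854 with it. Within the replicate numbers the log2 differences were -0.43, -0.75 and -0.47 for numbers 1, 2 and 3. That all 3 pairs had the lower value in the EBF array follows from the groups not overlapping. Leaving out any 1 array gave log2 differences between -0.68 and -0.35, all with an adjusted p of at least 0.138. Without both EBF 3 and control 2, the lowest EBF array and the highest control array for this gene, the log2 difference was -0.26 (adjusted p = 0.174). Cells were measured in bulk, so fewer cells with the transcript and less transcript per cell cannot be told apart.

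The T-box factors were dim in both groups. Tbx21 had intensities of 98.2, 108 and 82.7 on EBF 1 to 3 and of 107, 88.3 and 99.2 on control 1 to 3, which is the level of the Bacillus controls. The groups overlapped, and the log2 difference was -0.02 (95% interval -0.24 to 0.19; limma adjusted p = 0.915). Eomes 1426001_at read 379, 405 and 467 with EBF, against 382, 377 and 369 in controls. EBF 3 alone lay above the highest Bacillus control, while EBF 1 lay among the controls. The log2 difference was 0.13 ± 0.09 (SE; 95% interval -0.06 to 0.33; limma adjusted p = 0.427). The other Eomes probe set, 1435172_at, read 120.3, 144 and 113 with EBF, against 98.8, 129.8 and 94.4 in controls. Here each EBF array was above the control array of its own number, by 0.22, 0.12 and 0.20 on the log2 scale, but the groups overlapped and the call was missed in both fits (limma adjusted p = 0.429, blocked 0.172). This probe set, like that of Tbx21, lay near the median of the Bacillus controls.

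**Figure D2:**
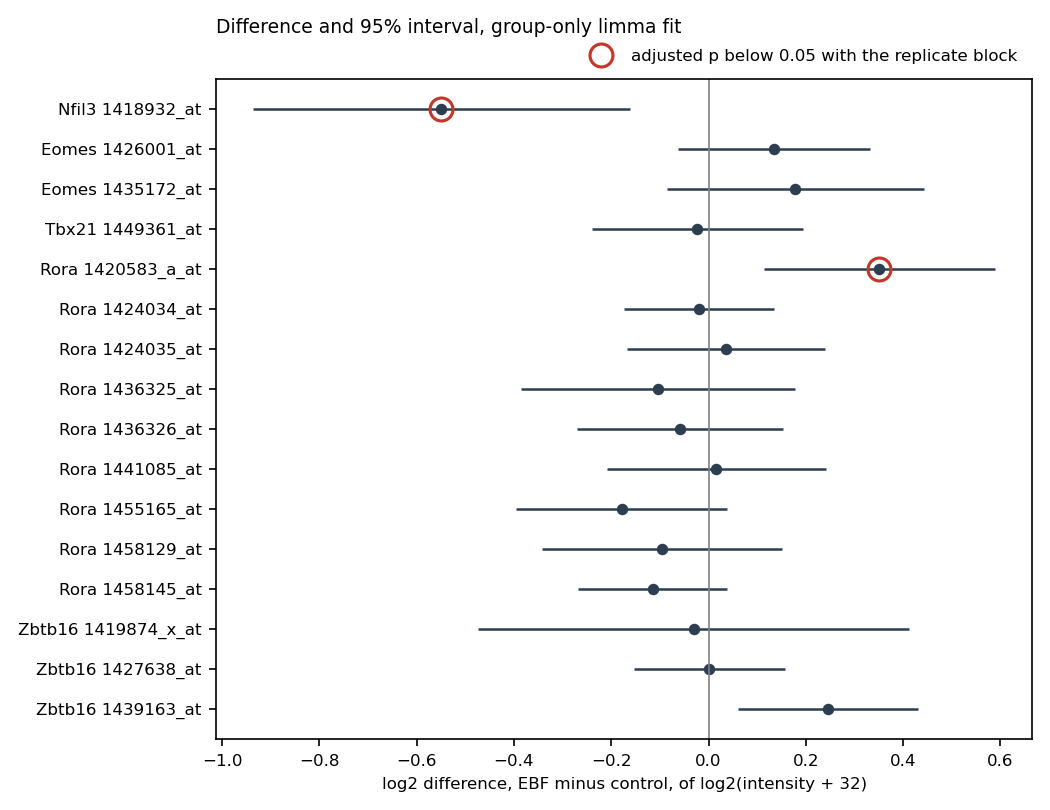
Log2 difference of each probe set, EBF minus control, with the 95% interval of the group-only limma fit, and a red ring where the adjusted p was below 0.05 with the replicate block. The interval leaves out 0 for Nfil3, Rora 1420583_a_at and Zbtb16 1439163_at.

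The 9 Rora probe sets did not move together: 3 had a positive and 6 a negative log2 difference. The highest was that of 1420583_a_at, which the platform table ties to the RefSeq mRNA of the gene, whereas the other 8 are tied to expressed sequence tags (ESTs), single reads of cDNA clones. The suffix _a_at marks probes that match several transcripts of the same gene. This probe set read 492, 411 and 367 on EBF 1 to 3, against 339, 317 and 313 on control 1 to 3. The groups did not overlap, although EBF 3 and all controls lay below the highest Bacillus control. The mean was 423 ± 63.5 with EBF and 323 ± 14.2 in controls (SD, n = 3 each), a ratio of 1.31. The log2 difference was 0.35 ± 0.10 (SE; 95% interval 0.11 to 0.59). The adjusted p in limma was 0.155 for the group-only fit and 0.0365 for the blocked one, and the pairs differed by 0.50, 0.35 and 0.21 for numbers 1, 2 and 3. Without EBF 3, the lowest of the EBF arrays, the group-only fit also called it (log2 0.44, adjusted p = 0.0288), where 9.52% of all probe sets passed.

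The other 8 Rora probe sets had log2 differences between -0.18 and 0.04, with adjusted p of at least 0.341, and of at least 0.284 with the block. The brightest, 1441085_at, read 814, 712 and 694 with EBF, against 680.1, 823.9 and 694 in controls. Its arrays were interleaved, with a log2 difference of 0.02 (95% interval -0.21 to 0.24). Rora 1458145_at read 405, 395 and 403 with EBF, against 422, 439 and 449.7 in controls. All EBF arrays were below all controls, but by little: the log2 difference was -0.12 ± 0.07 (SE; limma adjusted p = 0.381). For 1458129_at the groups overlapped (416, 372 and 488 with EBF, against 415, 497 and 453 in controls). The probe sets 1424034_at and 1424035_at stayed between 192 and 265 on every array. The remaining 3 (1436325_at, 1436326_at and 1455165_at) lay between 54.7 and 134, around the median of the Bacillus controls. Which transcripts of Rora the EST probe sets read is not known here.

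Zbtb16 differed at 1 of its 3 probe sets by more than the spread within the groups. The brightest, 1439163_at, read 613, 547 and 539 on EBF 1 to 3, against 481, 494 and 442 on control 1 to 3. All 6 arrays lay above the highest Bacillus control and the groups did not overlap. The mean was 566 ± 40.6 with EBF and 472 ± 26.8 in controls (SD, n = 3 each), a log2 difference of 0.25 ± 0.08 (SE; 95% interval 0.06 to 0.43). Neither limma fit called it (adjusted p = 0.179, blocked 0.0883). The pairs differed by 0.33, 0.14 and 0.27, and that all 3 were higher with EBF follows from the groups not overlapping. The probe set 1427638_at, tied to a Zbtb16 mRNA, read 357, 332 and 346 with EBF, against 352, 346 and 335 in controls. These groups overlapped, with every array below the highest Bacillus control and a log2 difference of 0.00 (95% interval -0.15 to 0.16).

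The third Zbtb16 probe set was highest on the number 3 array of each group. It is 1419874_x_at, whose suffix marks probes that may cross-hybridise to other sequences. It read 156, 183 and 279 on EBF 1 to 3 and 179, 185 and 262 on control 1 to 3, and the groups overlapped. It lay below the highest Bacillus control on every array. Its log2 difference was -0.03 ± 0.19 (SE; 95% interval -0.47 to 0.41).

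**Figure D3:**
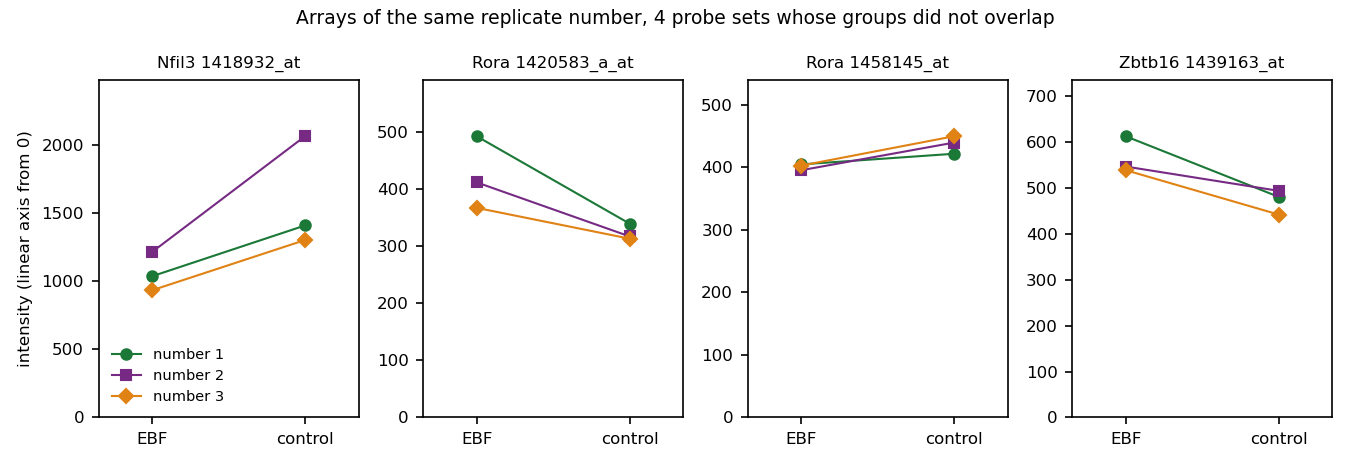
Intensity (linear axes from 0) of the 4 probe sets whose groups did not overlap, with EBF at the left and control at the right of each panel and lines joining arrays of the same replicate number. All 3 lines run the same way in each panel, which follows from the groups not overlapping. For Nfil3 the steepest is number 2, where control 2 reached 2064.

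Other regulators of NK cells and ILCs were read at the brightest probe set of each gene. Of 24 listed, 22 were measured and 0 passed in the group-only fit, against 1.09% of all genes (0.418% higher and 0.671% lower). With the block 2 were higher and 1 lower, against 7.34% of all genes (4.82% higher and 2.52% lower). Without EBF 3 the group-only counts were likewise 2 and 1, where 9.52% of all probe sets passed. The median log2 difference of these regulators was -0.03, where all genes had 0.03. The same shares stand beside the counts of the lists that follow. Ets1, an activator needed for NK cell development, averaged 4677 ± 177 with EBF and 3309 ± 450 in controls (SD, n = 3 each; log2 0.50 ± 0.10, limma adjusted p = 0.0788, blocked 0.0115). Tox, a nuclear factor needed for NK and ILC precursors, averaged 347 ± 31.9 with EBF and 449 ± 42.7 in controls (log2 -0.35 ± 0.10; limma adjusted p = 0.144, blocked 0.0585). The other 2 genes called with the block were Batf3 (log2 0.36), a leucine zipper factor, and Stat4 (log2 -0.38), which signals from the IL-12 receptor. Of the 22, 14 had a mean above the highest Bacillus control, and Tox and Batf3 were not among them. Batf3 had a mean of 218 over all arrays and its groups overlapped.

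Genes described as targets of T-bet and Eomes gave 2 that fell and 0 that rose among 19 measured, against 0.671% and 0.418% of all genes. Both encode subunits of the interleukin-18 receptor, Il18r1 (log2 -0.99 ± 0.07, limma adjusted p = 0.00118) and Il18rap (-0.54 ± 0.08, limma adjusted p = 0.0198). Il18r1 passed whichever array was left out, but Il18rap passed only when that array was EBF 3 (adjusted p up to 0.103 otherwise). Without EBF 3, where 9.52% of all probe sets passed, 3 of these genes fell (Havcr2 among them) and 2 rose (Il12rb2 and Slamf7). Havcr2 had a mean of 92.7 over all arrays, below the median of the Bacillus controls. Of the 19, 9 had a mean above the highest Bacillus control. With the block 2 were higher, Il12rb2 (0.32) and Slamf7 (0.60), and 3 lower. The third of the lower genes was the chemokine gene Ccl3, for which control 2 read 2122 while the other controls read 526 and 569.9 and the EBF arrays between 300 and 435. Ifng, the interferon gamma gene that T-bet activates, read 147 to 175 with EBF and 130 to 148 in controls, within the range of the Bacillus controls (log2 0.15, adjusted p = 0.363). The median of this list was 0.00.

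NK cell markers held 1 gene that rose and 6 that fell among 15 measured, against 0.418% and 0.671% of all genes. Gzma, a granule protease, rose by 2.78 on the log2 scale (limma adjusted p = 0.00164), while Klrd1, an NK receptor chain, fell by 2.06 (0.00118) and Nkg7, a granule protein, had -1.70 (0.00222). Those 3 passed whichever array was left out. The number that fell was 3 without EBF 2, and 4 without EBF 1, control 1 or control 2. Without EBF 3, where 9.52% of all probe sets passed, 3 rose (Gzma, Klre1 and Klra8). Klre1 and Klra8 had means of 86.7 and 94.5 over the 6 arrays, below the median of the Bacillus controls. The NK markers summed to between 9771 and 11361 on the EBF arrays and between 14726 and 17130 on the control arrays. Bright probe sets weigh most in this sum, such as Fcer1g, 1 of the 6 that fell, with means of 4089 with EBF and 6140 in controls. Gzma, the 1 that rose, went the other way (1402 against 170). Of the 15, 9 had a mean above the highest Bacillus control, and Ncr1, which defines NK cells, read 189 ± 37.2 with EBF and 181 ± 16.1 in controls (SD, n = 3 each). Whether these markers have a part in the Nfil3 or Rora values was not tested.

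Receptors, kinases and STAT transcription factors listed as upstream of the 5 factors gave 1 gene that fell, Il18r1, and 0 that rose among 16 measured. Il18r1 is the same gene as in the list of T-bet and Eomes targets. Over all genes the shares were 0.671% and 0.418%. Without EBF 3, Il12rb2 rose, and Il18r1 and Stat4 fell. With the block, Il7r, the receptor of the IL-7 in the medium, and Il12rb2 were higher, and Il18r1 and Stat4 lower. Il7r read 5963, 6094 and 7449 on EBF 1 to 3, against 4418, 4039 and 6269 on control 1 to 3 (log2 0.42 ± 0.16; limma adjusted p = 0.221, blocked 0.0224). The groups overlapped, since control 3 exceeded EBF 1 and EBF 2, although each EBF array exceeded the control array of its number.

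Markers of group 2 ILCs, the lineage that needs Rora, and of group 3 ILCs gave 0 called of 14 measured in the group-only fit. Their median log2 difference was 0.13. Of the 14, 5 had a mean above the highest Bacillus control, and Il17a was not among them. The smallest p-values were those of Il17a, a cytokine of group 3 ILCs, which averaged 393 ± 35.4 with EBF and 326 ± 29.5 in controls (SD, n = 3 each; log2 0.25, limma adjusted p = 0.211), and Il1r1 (0.26, adjusted p = 0.251). The block called Lta (0.36, adjusted p = 0.0365), a cytokine of lymphoid tissue formation. Of 15 genes tied to NKT cells and PLZF, 0 passed in the group-only fit, and 3 were lower with the block or without EBF 3. That 0 was also lost when arrays were divided by their median or with a larger pseudocount (2 lower each, S100a4 and Itgb7), with the filter on dim probe sets (1 lower, S100a4) and without both EBF 3 and control 2 (1 lower, Itga4). With the block the 3 were S100a4, a calcium-binding protein (log2 -0.54 ± 0.10; limma adjusted p = 0.0529, blocked 0.0106), and the integrin genes Itgb7 (-0.41; 0.071, blocked 0.0215) and Itga4 (-0.55; blocked 0.00529).

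Clock and D-box genes, to which Nfil3 and Rora also belong, gave 0 called of 17 measured, with a median of 0.07, and 1 with the block, Arntl (2 higher without EBF 3, Arntl and Cry1). Arntl encodes the clock activator that RORalpha is known to switch on, and it read 2347, 2602 and 3972 on EBF 1 to 3, against 1267, 998 and 1789 on control 1 to 3. The groups did not overlap (log2 1.12 ± 0.24; limma adjusted p = 0.0821, blocked 4.25e-04). Nr1d2, a repressor that binds the same ROR elements as RORalpha, averaged 1050 ± 56.9 with EBF and 849 ± 66.6 in controls (SD, n = 3 each; log2 0.30 ± 0.08, limma adjusted p = 0.142, blocked 0.0656). The D-box activators Dbp (0.10), Tef (0.09) and Hlf (0.04), which bind the sites that Nfil3 represses, passed in neither fit.

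Relatives of the members by protein family gave few calls. Of 12 measured T-box genes 0 passed (without EBF 3 Tbx19 rose and Tbx18 fell), and Tbx19, a pituitary T-box factor, was called with the block at 793 ± 140 with EBF and 574 ± 26.4 in controls (SD, n = 3 each; log2 0.43, limma adjusted p = 0.144, blocked 0.0259). Tbx5 had the next smallest p (0.25; adjusted p = 0.183), and 3 of the 12 had a mean above the highest Bacillus control. Of 16 BTB zinc finger relatives of Zbtb16, 0 passed in either fit, with 13 above that level. Among them Zbtb7b, the T helper cell factor ThPOK, had -0.22 (adjusted p = 0.328), and Bcl6b had 0.14 (adjusted p = 0.354).

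**Figure D4:**
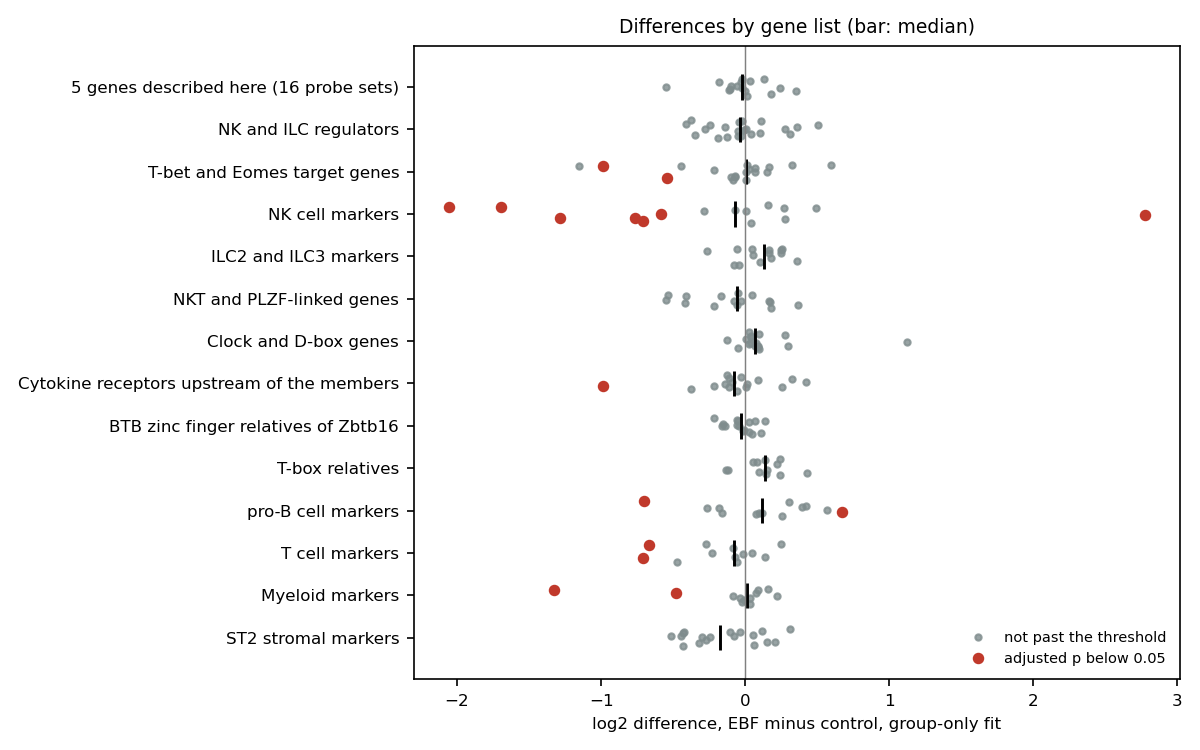
Log2 difference, EBF minus control, of each measured gene at its brightest probe set, by gene list, with the 16 probe sets of the 5 genes in the top line, medians as black bars and genes past the adjusted threshold of the group-only fit in red. No probe set of the 5 genes is red, while 7 NK cell markers are.

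The probe sets whose profile was most like that of each member were found over the 6 arrays among 1-symbol probe sets above the highest Bacillus control. The measure was Pearson's r of log2(intensity + 32), given as a description, since 6 arrays in 2 groups let many probe sets reach a high r. Nfil3 was most like Pafah2 (r = 0.997), the kinase gene Stk17b (0.995) and Serinc1 (0.992), with 293 of 19381 candidates above 0.9. Zbtb16 1439163_at was most like Prrx1 (0.996), a homeobox gene of mesenchymal cells, Mlph (0.994) and the replication gene Mcm3 (0.994), with 790 above 0.9. Rora 1441085_at was most like Ly6m (0.993), Pskh1 (0.991) and Slc38a10 (0.984). Eomes 1426001_at was most like Trnt1 (0.994), the mitotic kinase gene Nek2 (0.985) and Fnta (0.983). Tbx21, at background, was most like Sdf4 (0.981), Kdm3a (0.977) and Tbc1d19 (0.973).

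Markers of the labelled cell type were present and those of other cells partly so. All 13 measured pro-B cell markers had means above the highest Bacillus control. In the group-only fit 0.418% of all genes were higher and 0.671% lower, and with the block 4.82% were higher and 2.52% lower. Without EBF 3, 9.52% of all probe sets passed. Each count here stands beside the share of its own fit. Vpreb3, a pre-B cell receptor partner, rose by 0.67 and Dntt, the terminal transferase, fell by 0.70, and 4 markers were higher with the block (Vpreb3, Cd79b, Igll1 and Il7r) and the first 3 of these without EBF 3. Vpreb3 did not pass when EBF 2, control 1 or control 2 was left out (adjusted p up to 0.0635), and Dntt without EBF 1, EBF 2, control 1 or control 3 (up to 0.106). Of 12 T cell markers 2 fell, Cd28 (-0.71) and Cd5 (-0.67), with summed levels of 9337 to 10158 with EBF and 10509 to 11485 in controls. Of these 12, 7 had a mean above the highest Bacillus control, Cd5 not among them, and 1 of the 7 fell under the filter on dim probe sets. The block also called Thy1, a surface protein of T cells (log2 -0.47, limma adjusted p = 0.164, blocked 0.00926). Of 12 myeloid markers 2 fell, Fcgr3 (-1.33) and Lyz2 (-0.48), with sums of 6520 to 6785 with EBF and 6967 to 7791 in controls. Of these, 7 had a mean above the highest Bacillus control, Fcgr3 and Lyz2 among them. Fcgr3, Lyz2 and Cd5 each missed the threshold without EBF 1, EBF 2 or control 1. Fcgr3 and Lyz2 also missed it without control 2, and Lyz2 without control 3. The limma adjusted p reached up to 0.136 for Fcgr3, 0.101 for Lyz2 and 0.0819 for Cd5. Fcgr3 also missed it with a smaller pseudocount. Cd28 missed it without control 1 or control 2 (up to 0.0711). Of 18 ST2 stromal markers 0 passed in either fit, and their sums overlapped (24007 to 35035 with EBF, 27280 to 44713 in controls). The smallest p among them were those of the collagen gene Col3a1 (-0.27, adjusted p = 0.258) and Vcam1 (0.16, adjusted p = 0.285), and 16 of the 18 were above the highest Bacillus control. The part of stromal RNA in the Rora and Zbtb16 values was not tested.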

How the data were processed

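Per the labels, biotinylated cRNA prepared from 6 microg total RNA went onto Affymetrix arrays, 3 per group. The file holds deposited intensities, 1 per probe set and array, on a linear scale. How the authors summarised, background-corrected and normalized them is not given in the sources used here, and no scaling was added. The design text names a rat array, but the probe sets are in the mouse platform table. The file lists 45101 probe sets, 64 of them Affymetrix controls, which were not tested. Of the 45037 tested, the table gave 1 symbol to 34945, several to 932 and none to 9160. The fit used limma 3.58.1 under R 4.3.3, on log2(intensity + 32), two-sided and with group alone in the model, and was tested on simulated data. The number of arrays limits the precision. The 5 members and the 13 gene lists (215 entries) were chosen with earlier results of these data known. From each list the 2 largest increases and 2 largest decreases that passed were named, or the 2 smallest p-values where none passed. Other genes were named after their values were seen. Same-numbered arrays deviated together (correlations 0.316, 0.251 and 0.505, against a limit of 0.1). Unlike-numbered arrays had correlations between -0.3702 and 0.0647, but deviations from group means must balance, so these values are not independent. The limit was a fixed setting, and the pairing was not tested against other matchings of the arrays. This pairing comes from the data, as the labels carry only numbers. Alternatives were pseudocounts of 8 and 128, quantile or median scaling, a filter on dim probe sets, the replicate block and leaving out arrays.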

Additional observations from a re-analysis of the deposited data

How the results depend on the processing

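The small number of arrays and the dimness of most member probe sets limit these results: 5 of 16 had a mean above the highest Bacillus control, and the filter on dim probe sets left these 5, of which 0 passed. With the replicate block, paired by number, 1 member was higher and 1 lower, 2199 probe sets were higher and 1081 lower over the whole table, and 12 list genes were higher. The block changed no other member's call. The higher probe sets of the whole table numbered 155 in the group-only fit (239 lower) and 103 with the pseudocount of 8. Without EBF 3 and control 2 together, 1386 were higher and 501 lower, with 5 list genes higher and 0 members called. Leaving out 1 array gave 0 to 1 members higher, 32 to 3045 probe sets higher and 43 to 1242 lower, and 1 to 13 list genes higher and 5 to 19 lower, where the group-only fit had 2 and 13. The highest of these counts came without EBF 3.

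Differences near 0 changed sign, and the cause was not tested. Under quantile normalization the log2 differences were -0.0047 for Rora 1424035_at, -0.0048 for Rora 1441085_at and -0.0315 for Zbtb16 1427638_at. With arrays divided by their median they were -0.0122 for Rora 1441085_at and -0.0253 for Zbtb16 1427638_at. Leaving out 1 array gave -0.087 to 0.0541 for Tbx21, -0.0363 to 0.0027 for Rora 1424034_at, -0.0486 to 0.0806 for 1424035_at, -0.1108 to 0.0204 for 1436326_at and -0.0517 to 0.0998 for 1441085_at. It gave -0.2406 to 0.1238 for Zbtb16 1419874_x_at and -0.0218 to 0.0274 for 1427638_at. The Nfil3 probe set, Rora 1420583_a_at, Zbtb16 1439163_at and both Eomes probe sets kept their direction under every alternative in which they were tested. So did Rora 1436325_at, 1455165_at, 1458129_at and 1458145_at, which were lower with EBF, whereas Rora 1420583_a_at was higher.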

Other observations

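Control 2, which had the highest Nfil3 value, was also the highest array for several other genes of the lists, seen after their values were known. How many genes were highest on each array was not counted, so these examples do not show a trait of control 2. Klf2, a factor of lymphocyte quiescence, read 2257, 2391 and 2286 on EBF 1 to 3, against 2671, 4201 and 2596 on control 1 to 3. Egr2, an early response factor, read 120, 123 and 126 on EBF 1 to 3, against 138, 273 and 136 on control 1 to 3. All these Egr2 values lay within the range of the Bacillus controls. The group-only limma fit called neither gene (adjusted p = 0.241 for Klf2 and 0.319 for Egr2).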
